A study of Homo sapiens with 12 samples.

Results

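The 10 genes described here encode the 3 TGF-β ligands (TGFB1, TGFB2, TGFB3), the 4 latent TGF-β binding proteins (LTBP1, LTBP2, LTBP3, LTBP4), the fibrillins FBN1 and FBN2, and LRRC32. They were chosen by symbol, with earlier results of these data known, and each matched 1 of the 57500 gene rows of the count table. TGF-β is secreted in a latent form, in which the cleaved propeptide stays wrapped around the growth factor. The propeptides of the ligands are held by disulfide bonds to LTBP1, LTBP3 or, more weakly, LTBP4, which anchor the complex to fibrillin microfibrils and fibronectin in the extracellular matrix. LTBP2 is built like its relatives but does not bind latent TGF-β. LRRC32 (GARP) holds latent TGF-β on the cell surface and is known from regulatory T cells and platelets. Integrins, proteases and thrombospondin can release the active ligand.

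The study sequenced rRNA-depleted total RNA from 3 established human lines, with 12 libraries that form 4 groups of 3 biological replicates. SW480 comes from a primary colorectal cancer and SW620 from a metastasis of the same patient, and both were grown in DMEM without added TGF-β. The ovarian cancer line PEO4 was kept in RPMI 1640, and its treated cultures received recombinant human TGF-β at 10 ng/mL over 6 days while the controls received none. The isoform of the added TGF-β is not given in the labels. Both media held fetal bovine serum and antibiotics. Each line stands for 1 tumour, so a difference between SW620 and SW480 is a difference between 2 lines. Nothing in the labels says how the replicate cultures were separated. The p-values therefore set a group difference against the spread between these libraries and reach no further.

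Libraries held 14531420 to 22028956 counts. Levels are given as CPM, the count scaled to the size of its library. The limit set by a count of 0, 3 counts, equals 0.136 to 0.206 CPM and reflects counting error only. The intestinal factor CDX2 stood at 15.1 to 23.3 CPM in the SW libraries and at no more than 3 counts in PEO4. Of the 6 ovarian markers, PAX8, WT1, EMX2, MUC16 and MSLN were higher in PEO4 than in the SW lines and SOX17 was not. Their summed level was 5379 to 8599 CPM in PEO4 control and 3023 to 4814 CPM with TGF-β, most of it from MUC16. MSLN, EMX2 and WT1 fell by 0.77, 0.49 and 0.47 on the log2 scale (adjusted p of 0.00375, 0.0235 and 0.0274 in edgeR's test). EMX2 passed in 1 and WT1 in 2 of the 6 fits that each left out 1 library. MUC16, PAX8 and SOX17 did not pass, with log2 fold changes of -1.27, 0.03 and 0.15 (adjusted p of 0.0701, 0.911 and 0.844 in edgeR's test). Summed epithelial markers were at 1501 CPM or more in every library. Summed fibroblast markers were 4.49 to 5.30 CPM in SW480 and 8.68 to 18.1 CPM in SW620. In PEO4 they were 232 to 364 CPM in control and 274 to 394 CPM with TGF-β, nearly all from THY1, while PDGFRA did not exceed 2 counts and DPT was at 0. Summed endothelial markers stayed at or under 7.84 CPM, and summed leukocyte and platelet markers at or under 8.27 CPM. SW620 replicate 3 had the highest level of genes found in PEO4 and nearly absent from the other SW libraries. Genes with at least 5 CPM in every PEO4 library and at most 3 counts in the other SW libraries reached 1.29% of their PEO4 level there, from 88 genes. The same measure gave 0.408% to 0.737% in the other 5 SW libraries, each over its own set of 38 to 41 genes. The library measured had no upper limit on its counts, so a gene raised in it could enter only its own set. These rates thus rest on different genes, and part of the gap can come from this choice. PTPRC, a leukocyte gene, was at 5.10 CPM in the same library and at 1.88 to 2.95 CPM in PEO4, so above its PEO4 level, and the source of these reads was not tested. Were the rate of 1.29% to apply to every gene, such reads would make up 37.7% of the LTBP2 counts, 24.2% of the LTBP1 counts and 3.24% of the TGFB2 counts of SW620 replicate 3. The part of these reads and markers in the results was not tested beyond the fits without that library. In bulk RNA, fewer cells of a type and less RNA per cell cannot be told apart.

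Per kilobase of exon, TGFB1 and LTBP3 led their families in all 4 groups. TGFB1 made up 88.2% ± 1.77 of the summed ligand level in SW480, 97.4% ± 1.05 in SW620, 87.9% ± 1.66 in PEO4 control and 89.6% ± 0.0821 in PEO4 with TGF-β (SD, n = 3). LTBP3 made up 61.0% ± 0.593, 63.9% ± 2.75, 88.9% ± 0.997 and 70.0% ± 1.25 of the summed binding protein level in the same order. LTBP4 was the second binding protein in both SW lines, at 24.9% ± 2.47 in SW480 and 34.6% ± 2.84 in SW620. In PEO4 it held 2.60% ± 1.05 in control and 1.35% ± 0.430 with TGF-β. LTBP2 took 11.6% ± 2.47 in SW480 and 1.24% ± 0.0561 in SW620, and 6.15% ± 1.36 in PEO4 control and 24.3% ± 1.33 with TGF-β. The summed binding protein level was 68.9 ± 1.99 CPM per kilobase in SW480, 32.9 ± 3.34 in SW620, 57.5 ± 12.7 in PEO4 control and 103 ± 8.56 with TGF-β (SD, n = 3). With the longest transcript in place of all exons, TGFB1 and LTBP3 still led. The TGFB1 shares came to 87.7%, 96.2%, 82.6% and 86.2% in the same order, and the LTBP3 shares to 71.9%, 72%, 93.9% and 83.1%. The LTBP2 shares then came to 6.28% in SW480, 0.641% in SW620, 2.98% in PEO4 control and 13.2% with TGF-β. The summed binding protein level came to 135, 67.5, 126 and 200.4 CPM per kilobase of longest transcript in the same order, so these shares and sums depend on the length used.

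**Figure D1:**
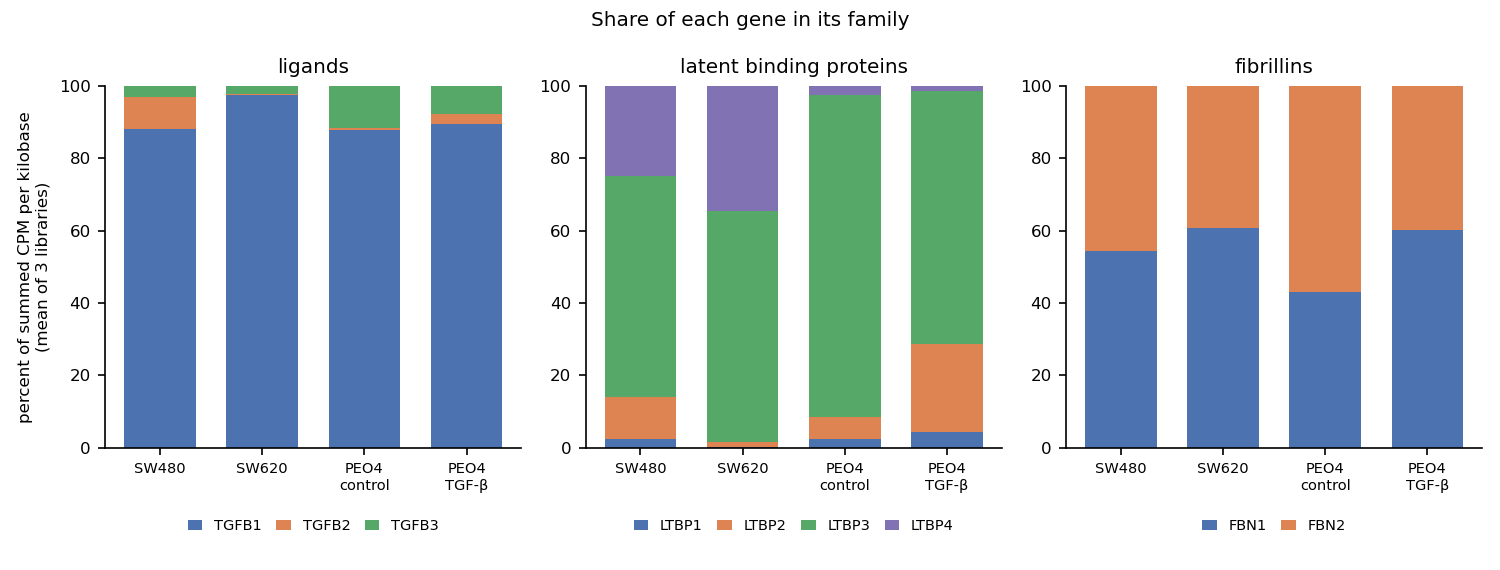
Stacked bars give the mean percent (3 libraries per group) that each gene contributes to the summed CPM per kilobase of its family, with 1 panel per family and 1 bar per group. TGFB1 fills 87.9% or more of every ligand bar, or 82.6% or more with the longest transcript as length. The LTBP2 part grows from 6.15% to 24.3% from control to treated PEO4, or from 2.98% to 13.2% with the longest transcript.

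The fibrillins were higher in PEO4 than in the SW lines. Their summed level was 0.133 ± 0.0431 CPM per kilobase in SW480, 0.115 ± 0.0268 in SW620, 2.58 ± 0.497 in PEO4 control and 6.36 ± 1.78 in PEO4 with TGF-β (SD, n = 3). FBN1 and FBN2 did not overlap between any SW library and any PEO4 library. How many of all genes likewise did not overlap between these lines was not counted. FBN1 had 15 to 34 counts in the SW libraries and 253 to 1739 in PEO4. LRRC32 had 2, 2 and 0 counts in SW480, 0 in every SW620 library, and 19 to 54 counts in PEO4. TGFB1 ran the other way, with all SW libraries at 62.9 CPM or more and all PEO4 libraries at 40.3 CPM or less. The lines differ in tissue and medium, so these levels are a description and were not tested across lines.

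**Figure D2:**
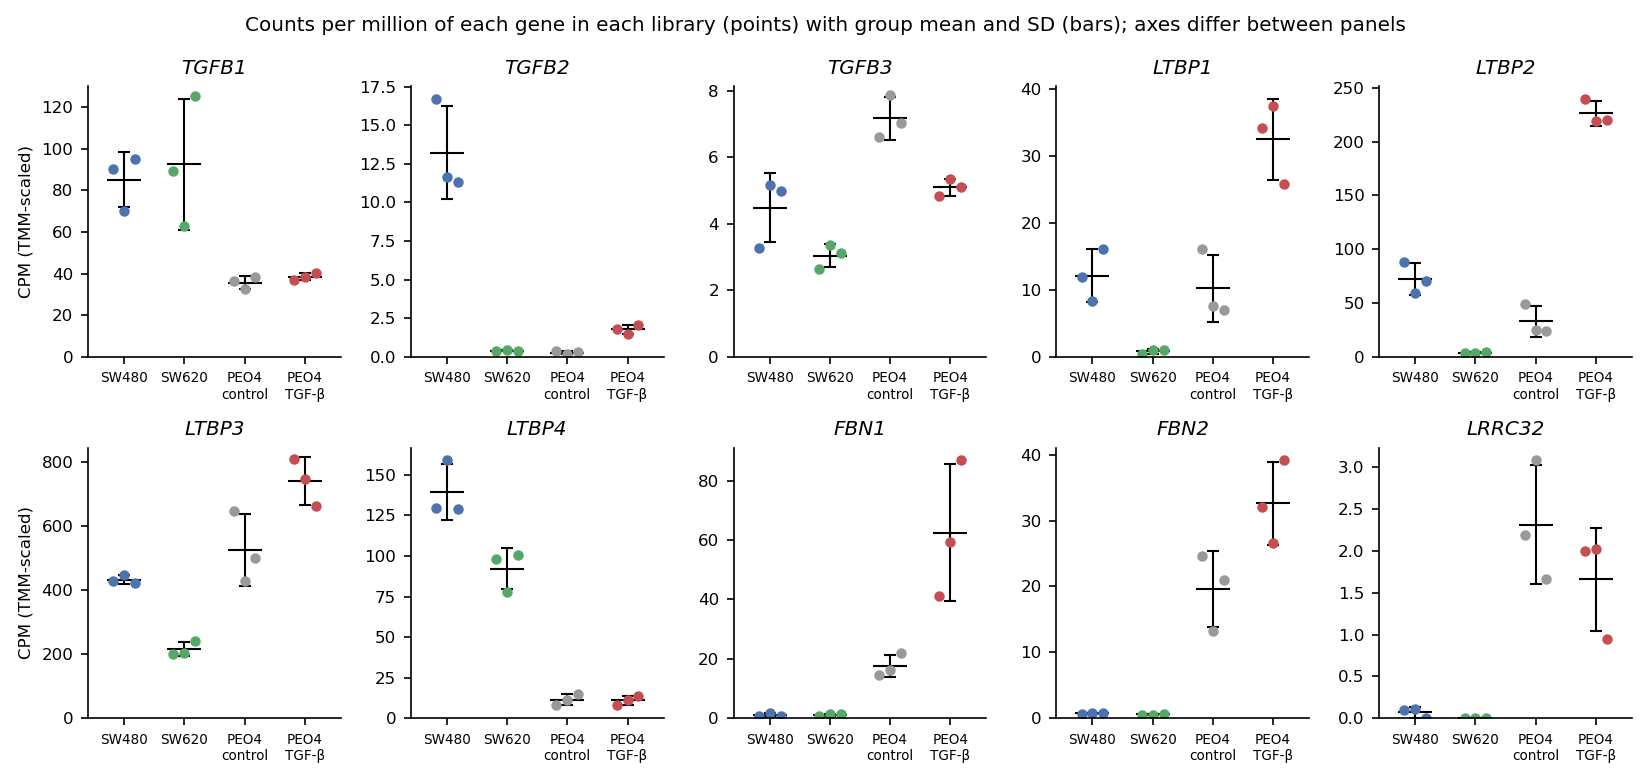
Each panel plots 1 gene, with CPM scaled by TMM factors on the vertical axis, 1 point per library, and the group mean with its SD as bars, and the vertical axes differ between panels. The SW620 points of TGFB2, LTBP1 and LTBP2 lie below every SW480 point, and all PEO4 points with TGF-β of these 3 genes lie above every control point.

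The first comparison set SW620 against SW480. Of the 10 genes, 9 had enough counts to test, and 5 fell in SW620 at an adjusted p under 0.05 in edgeR's quasi-likelihood test, while 0 rose. Over all 20941 genes tested, 17.0% fell and 13.5% rose. None of the 10 was higher at an unadjusted p under 0.05 (40.7% of all genes in either direction) or in DESeq2 (15.7% of all genes higher). With the GC correction and the replicate block together, TGFB1 was called higher, by 0.31 ± 0.12 (adjusted p of 0.0262 in edgeR's test). The 5 were TGFB2 and the 4 binding proteins, and their replicate values did not overlap between the lines. That holds for 23.5% of all tested genes in the lower direction. The median log2 fold change was -0.57 over the 9 genes, of which 8 were fitted lower, and 0.033 over all tested genes. The authors' deposited table has the same 5 genes under an adjusted p of 0.05.

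Among the ligands, TGFB2 (chromosome 1, 218346235 to 218444619, plus strand, GRCh38) had 331, 205 and 218 counts in SW480 and 8 counts in each SW620 library. These are 16.7, 11.6 and 11.3 CPM against 0.386, 0.413 and 0.378 CPM, so all SW620 libraries lay far below all SW480 libraries. TGFB2 fell by 5.02 ± 0.31 on the log2 scale (SE), a 32.5-fold difference, at an adjusted p of 7.91e-06 in edgeR's test. Its share of the summed ligand level per kilobase was 8.66% ± 1.77 in SW480 and 0.283% ± 0.107 in SW620 (SD, n = 3). TGFB1 (chromosome 19, 41301587 to 41353911, minus strand), the most widely expressed isoform, was at 90.2, 70.2 and 95.2 CPM in SW480 and 89.2, 62.9 and 126 CPM in SW620. The lines overlapped for TGFB1, with a log2 fold change of 0.14 ± 0.23 (adjusted p of 0.703 in edgeR's test), and the sign turned to -0.12 without SW620 replicate 3. TGFB3 (chromosome 14, 75958099 to 75982991, minus strand), known for its role in palate closure, had 65, 91 and 96 counts in SW480 and 55, 65 and 66 in SW620. Its log2 fold change was -0.53 ± 0.30, which did not pass (adjusted p of 0.234 in edgeR's test).

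Of the binding proteins, LTBP2 (chromosome 14, 74498170 to 74612378, minus strand) stood at 88.3, 58.9 and 70.6 CPM in SW480 and 3.81, 3.25 and 4.06 CPM in SW620. It fell by 4.26 ± 0.21 on the log2 scale, at an adjusted p of 2.79e-06 in edgeR's test and rank 53 of 20941 genes. LTBP1 (chromosome 2, 32946972 to 33399509, plus strand), which carries latent TGF-β to the matrix, stood at 11.9, 8.35 and 16.2 CPM in SW480 and 0.386, 0.980 and 1.04 CPM in SW620. LTBP1 fell by 3.88 ± 0.41 on the log2 scale, at an adjusted p of 0.000144 in edgeR's test. Without SW620 replicate 3 the log2 fold changes of LTBP2, LTBP1 and TGFB2 were -4.32, -4.10 and -4.99, and all 5 genes still passed.

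LTBP3 and LTBP4 fell less. LTBP3 (chromosome 11, 65538805 to 65558930, minus strand) stood at 429, 448 and 422 CPM in SW480 and 202, 204 and 242 CPM in SW620. It fell by 0.98 ± 0.17 on the log2 scale (adjusted p of 0.00225 in edgeR's test). LTBP4 (chromosome 19, 40592883 to 40629818, plus strand), which also takes part in elastic fibre assembly, stood at 130, 159 and 129 CPM in SW480 and 98.1, 77.8 and 101 CPM in SW620. LTBP4 fell by 0.57 ± 0.17 on the log2 scale, at an adjusted p of 0.0346 in edgeR's test. That call was lost in 5 of the 6 leave-one-out fits (adjusted p up to 0.124), when each library was corrected for GC content (adjusted p of 0.209), and without the filter on low counts (adjusted p of 0.0812). It held in the fit without SW620 replicate 3 (adjusted p of 0.0352).

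The fibrillins and LRRC32 were near the detection limit in both SW lines. FBN1 (chromosome 15, 48408306 to 48645849, minus strand), the main fibrillin of adult microfibrils, had 15, 34 and 18 counts in SW480 and 16, 25 and 28 in SW620. FBN2 (chromosome 5, 128257909 to 128659185, minus strand), prominent in developing tissue, had 13, 14 and 16 counts in SW480 and 10, 11 and 15 in SW620. Neither passed edgeR's test, with log2 fold changes of -0.07 ± 0.50 for FBN1 (adjusted p of 0.936) and -0.34 ± 0.45 for FBN2 (adjusted p of 0.619). At the same assumed rate, such reads would make up 36.3% of its FBN1 counts and 44.2% of its FBN2 counts. LRRC32 (chromosome 11, 76657524 to 76670747, minus strand) was not tested, since its counts were too few at this depth to show a difference.

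**Figure D3:**
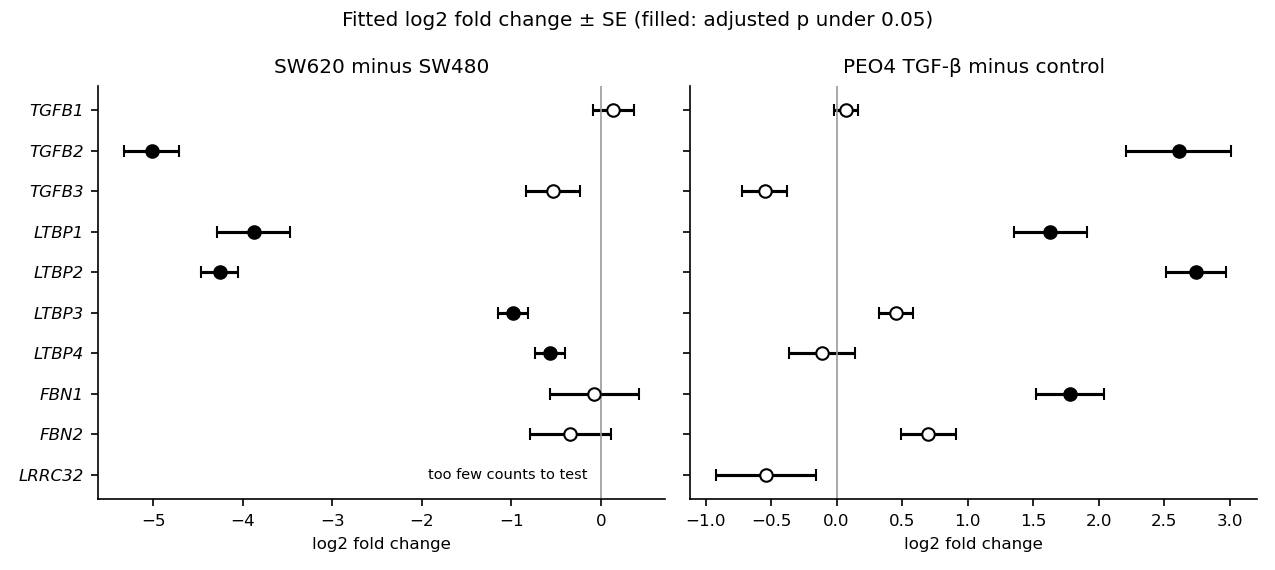
Points give the fitted log2 fold change with its SE for each gene, for SW620 minus SW480 on the left and PEO4 with TGF-β minus control on the right, and filled points have an adjusted p under 0.05 in edgeR's test. TGFB2, LTBP1 and LTBP2 are filled in both panels, between -5.02 and -3.88 on the left and between 1.63 and 2.74 on the right.

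The second comparison set PEO4 with TGF-β against PEO4 control. All 10 genes were tested, and 4 rose at an adjusted p under 0.05 in edgeR's test, namely LTBP2, TGFB2, FBN1 and LTBP1, while 0 fell. Over all 19064 genes tested, 1.27% rose and 0.991% fell. At an unadjusted p under 0.05, 6 of the 10 were higher and 1, TGFB3, was lower, against 16.7% of all genes in either direction. DESeq2 called 0 of the 10 lower. Replicate values did not overlap for 7 of the 10 genes, 6 of them higher and TGFB3 lower, against 12.2% higher and 7.66% lower over all genes. The median log2 fold change was 0.57 over the 10 genes, of which 7 were fitted higher, and -0.016 over all tested genes. DESeq2 called 6 of the 10, adding FBN2 and LTBP3, where it called 5.07% of all genes, and the authors' deposited table has the same 6 under an adjusted p of 0.05.

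LTBP2 stood at 49.5, 25.2 and 24.2 CPM in control and 240, 219 and 220 CPM with TGF-β. The treated libraries lay close together and all far above control replicate 1, the highest control. LTBP2 rose by 2.74 ± 0.23 on the log2 scale, a 6.70-fold difference, at an adjusted p of 0.00145 in edgeR's test and rank 8 of 19064 genes. Of the 4 genes, LTBP2 alone passed in all 6 leave-one-out fits. LTBP1 stood at 16.1, 7.59 and 6.99 CPM in control and 34.2, 37.5 and 25.8 CPM with TGF-β, and rose by 1.63 ± 0.28 on the log2 scale (adjusted p of 0.0203 in edgeR's test). Control replicate 1 was again the highest control.

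LTBP3, the most abundant binding protein, stood at 647, 429 and 501 CPM in control and 811, 748 and 663 CPM with TGF-β. The groups did not overlap, but the log2 fold change of 0.45 ± 0.13 did not pass edgeR's test (adjusted p of 0.133). In the authors' deposited table LTBP3 has an adjusted p of 0.0216. LTBP4 overlapped, at 8.15, 11.3 and 15 CPM in control and 8.22, 11.5 and 13.5 CPM with TGF-β. Its log2 fold change was -0.11 ± 0.25 (adjusted p of 0.872 in edgeR's test).

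Among the ligands, TGFB2 had 6, 3 and 6 counts in control and 33, 26 and 41 counts with TGF-β, or 0.347, 0.171 and 0.313 CPM against 1.83, 1.46 and 2.05 CPM. TGFB2 rose by 2.61 ± 0.40 on the log2 scale (adjusted p of 0.0146 in edgeR's test). Even so it remained a minor ligand transcript, at 0.424% ± 0.126 of the summed ligand level per kilobase in control and 2.60% ± 0.393 with TGF-β (SD, n = 3). TGFB1 stood at 36.4, 32.4 and 38.3 CPM in control and 37.0, 38.5 and 40.3 CPM with TGF-β. The TGFB1 groups overlapped, with a log2 fold change of 0.07 ± 0.09 (adjusted p of 0.766 in edgeR's test). TGFB3 stood at 6.59, 7.88 and 7.04 CPM in control and 4.83, 5.35 and 5.09 CPM with TGF-β, all treated libraries below all controls. Its log2 fold change of -0.55 ± 0.17 did not pass edgeR's test (adjusted p of 0.151).

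FBN1 stood at 14.6, 16.3 and 21.9 CPM in control and 41.3, 59.4 and 86.8 CPM with TGF-β. It rose by 1.78 ± 0.26 on the log2 scale (adjusted p of 0.0122 in edgeR's test). FBN2 stood at 24.6, 13.2 and 21.0 CPM in control and 32.1, 26.6 and 39.2 CPM with TGF-β, without overlap. Its log2 fold change of 0.70 ± 0.21 did not pass edgeR's test (adjusted p of 0.140), and its adjusted p in the authors' deposited table is 0.0239. FBN1 made up 43.1% ± 9.17 of the summed fibrillin level per kilobase in control and 60.2% ± 7.67 with TGF-β (SD, n = 3), and the libraries did not overlap. LRRC32 had 38, 54 and 32 counts in control and 36, 36 and 19 with TGF-β, and its log2 fold change of -0.54 ± 0.38 did not pass (adjusted p of 0.520 in edgeR's test).

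The calls in PEO4 depended on single libraries. Without control replicate 2, LTBP2 alone of the 10 genes passed edgeR's test (adjusted p of 0.0159), where 0.366% of all genes passed. FBN1, TGFB2 and LTBP1 then had log2 fold changes of 1.75, 2.40 and 1.48, with adjusted p of 0.0897, 0.0882 and 0.133 in edgeR's test. Without TGF-β replicate 1, LTBP1 and TGFB2 no longer passed. LTBP1 also did not pass without TGF-β replicate 2, at a log2 fold change of 1.55. TGFB2 did not pass without TGF-β replicate 3, at 2.49. Without control replicate 1, LTBP3 passed as well (adjusted p of 0.0171). In each of these fits LTBP2, TGFB2, FBN1 and LTBP1 were fitted higher with TGF-β.

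**Figure D4:**
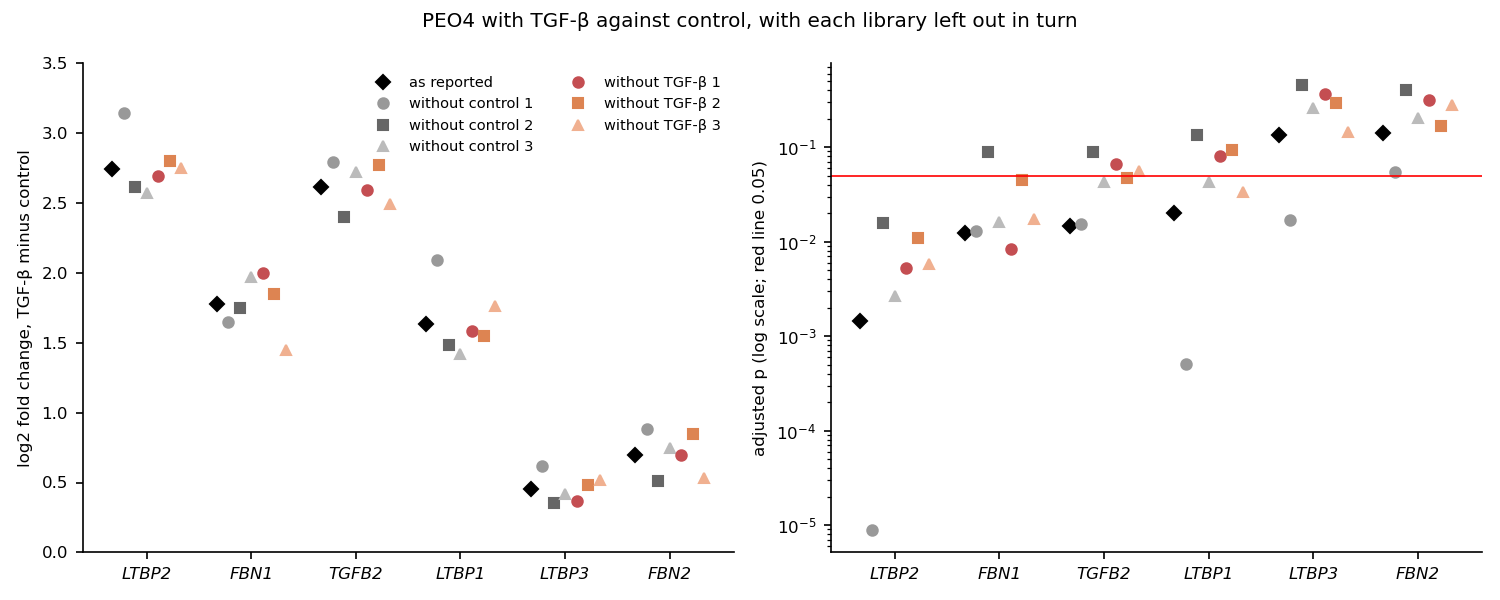
For 6 genes in PEO4, the left panel gives the log2 fold change (TGF-β minus control) and the right panel the adjusted p on a log scale, as reported (diamonds) and with each of the 6 libraries left out in turn (other symbols). All LTBP2 symbols lie below the red line at 0.05, and the fit without control replicate 2 puts FBN1, TGFB2 and LTBP1 above it.

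TGFB2, LTBP1 and LTBP2 thus passed in both comparisons, lower in SW620 and higher in PEO4 with TGF-β. In PEO4, TGFB2 and LTBP1 each passed in only 3 of the 6 leave-one-out fits. The share of all genes that passed in both comparisons was not counted. The order of the 4 groups differed between TGFB2, LTBP1 and LTBP2. TGFB2 was highest in SW480, at 13.2 ± 3.03 CPM against 1.78 CPM in PEO4 with TGF-β. LTBP2 was highest in PEO4 with TGF-β at 226 CPM, followed by SW480 at 72.6, PEO4 control at 33.0 and SW620 at 3.71 CPM, and no neighbours in that order overlapped. For LTBP1, PEO4 with TGF-β led at 32.5 CPM, SW480 at 12.1 and PEO4 control at 10.2 CPM overlapped, and SW620 was lowest at 0.802 CPM.

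Promoter sequence is shown for TGFB2 and LTBP1, the 2 of the 4 risen genes that hold the SMAD motif core in the bases before a start. The sequences are the 250 bases before a RefSeq start (GRCh38.p14), at chr1:218345086-218345335 on the plus strand and chr2:32946703-32946952 on the plus strand, 5′ to 3′. Capitals mark CAGAC or its reverse complement GTCTG.
TGFB2: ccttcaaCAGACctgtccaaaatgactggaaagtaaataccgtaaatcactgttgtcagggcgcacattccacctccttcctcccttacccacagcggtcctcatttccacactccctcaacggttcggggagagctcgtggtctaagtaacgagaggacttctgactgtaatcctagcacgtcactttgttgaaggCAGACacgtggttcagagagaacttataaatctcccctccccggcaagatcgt
LTBP1: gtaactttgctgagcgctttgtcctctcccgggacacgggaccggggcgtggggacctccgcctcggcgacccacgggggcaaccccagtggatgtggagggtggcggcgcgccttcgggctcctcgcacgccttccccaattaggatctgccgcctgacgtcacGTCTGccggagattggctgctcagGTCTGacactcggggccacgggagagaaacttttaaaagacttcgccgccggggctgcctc
Each holds 2 matches, 243 and 53 bases before the start in TGFB2 and 85 and 61 bases before it in LTBP1. LTBP1 has 2 further RefSeq starts, and the 250 bases before each hold 1 match. The RefSeq start of TGFB2 lies upstream of the GENCODE gene start given above. The RefSeq windows of LTBP2 and FBN1, which rose too, hold 0 matches in the 250 bases before the start. CAGAC on either strand occurs in 38% of 35116 such windows, so a match is common. Among the genes that did not rise, TGFB3 holds 2 matches before 1 of its 2 starts and LTBP4 holds 1 before 1 of its 2 starts, while TGFB1, LTBP3 and FBN2 hold 0. The AP-1 motif TGANTCA, searched on both strands, occurs in 6.57% of them and in none of the 14 windows of the 9 genes with a RefSeq entry. A match is a description and not a binding site.

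Other genes of the pathway were read from 4 lists, on latency release and activation, microfibril partners, receptors and SMADs, and treatment response. These lists were chosen with earlier results of these data known, so their counts beside the shares of all genes are a description. In SW620 against SW480, 16 of 20 genes for release and activation were tested. Of these, 8 fell and 1 rose in edgeR's test, against 17.0% and 13.5% of all genes, with a median log2 fold change of -0.49. The transglutaminase TGM2, which crosslinks latent complexes to the matrix, fell by 7.10 ± 0.39 on the log2 scale, from 3063 to 21.7 CPM. The membrane protease MMP14 fell by 3.59 ± 0.23, and the integrin subunits ITGB5 and ITGAV fell by 2.42 ± 0.24 and 1.99 ± 0.21. The propeptide-cleaving proteases PCSK5 and FURIN fell by 1.48 ± 0.17 and 1.05 ± 0.23, FURIN not passing without SW620 replicate 1. The count of 8 was 5 without SW620 replicate 1. The 1 that rose, the protease HTRA1, did not pass without SW480 replicate 1, SW480 replicate 2 or SW620 replicate 1. The count that rose was 2 without SW620 replicate 2 and 2 with the GC correction. It was 3 with the replicate block and 4 with the GC correction and the block.

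Microfibril partners went both ways between the SW lines. Of 24 tested genes 8 fell and 5 rose, against 17.0% and 13.5% of all genes, with a median of 0.01. The count of 5 was 3 without SW480 replicate 3 or SW620 replicate 3, 8 without the filter on low counts and 9 with the GC correction and the block. THSD4 and ADAMTS17, secreted proteins of the ADAMTS superfamily, fell by 2.41 ± 0.21 and 2.35 ± 0.21, and fibronectin (FN1) fell by 2.07 ± 0.20 on the log2 scale. ADAMTSL2, which binds LTBP1 and fibrillin, rose by 2.48 ± 0.31. Of the 10 receptors and SMADs 4 rose and 2 fell, against 13.5% and 17.0% of all genes, with a median of 0.05. The signalling receptor TGFBR1 fell by 1.69 ± 0.19, while its partner TGFBR2 rose by 1.28 ± 0.22 and the co-receptor TGFBR3 by 1.59 ± 0.20. The inhibitory SMAD6 rose by 3.05 ± 0.18 and SMAD7 fell by 1.72 ± 0.20. Of the 11 treatment response genes 2 rose and 4 fell, against 13.5% and 17.0% of all genes, with a median of -0.28. The count of 4 was 1 without SW480 replicate 1 or SW620 replicate 1 and 2 without SW480 replicate 3. The count of 2 was 1 without SW480 replicate 2, SW480 replicate 3, SW620 replicate 1 or SW620 replicate 3. LMCD1, a LIM domain cofactor, rose by 3.97 ± 0.19 on the log2 scale.

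In PEO4 with TGF-β, 18 of 20 genes for release and activation were tested. Of these, 4 rose and 0 fell in edgeR's test, against 1.27% and 0.991% of all genes, with a median of 0.44. At an unadjusted p under 0.05, 10 were higher and 3 lower, against 16.7% of all genes in either direction. DESeq2 called 7 higher and 1 lower, where it called 2.90% of all genes higher and 2.17% lower. Leaving out control replicate 2 gave 2 that rose, and leaving out control replicate 1 gave 7. MMP14 rose by 2.19 ± 0.25 on the log2 scale, the gelatinase MMP9 by 3.48 ± 0.43, thrombospondin 1 (THBS1) by 2.43 ± 0.30 and ITGB5 by 0.64 ± 0.12. MMP9 had at most 5 counts in a control library and at most 50 with TGF-β, so the size of its rise rests on few counts. ITGB5 passed in 1 of the 6 fits without 1 library, and THBS1 did not pass without control replicate 2. Of 27 tested microfibril partners 3 rose and 1 fell, against 1.27% and 0.991% of all genes, with a median of 0.11. At an unadjusted p under 0.05, 5 were higher and 4 lower, and DESeq2 called 4 higher and 2 lower. The count of 3 was 0 without control replicate 2, control replicate 3 or TGF-β replicate 1, 1 without TGF-β replicate 2 or 3, and 5 without control replicate 1. FN1 rose by 2.81 ± 0.55, the crosslinking enzymes LOX and LOXL1 rose by 1.34 ± 0.28 and 0.58 ± 0.12, and EFEMP1 fell by 0.95 ± 0.12. FN1 and LOX each passed in 2 of the 6 fits without 1 library, and LOXL1 in 1.

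Of the 10 receptors and SMADs in PEO4, 0 rose and 1 fell, against 1.27% and 0.991% of all genes, with a median of 0.01 in edgeR's fit. The 1 was SMAD6, lower by 1.16 ± 0.16. At an unadjusted p under 0.05, 1 of the 10 was higher and 2 lower, against 16.7% of all genes in either direction. DESeq2 called 0 higher and 1 lower, where it called 2.90% of all genes higher and 2.17% lower. SMAD6 did not pass without control replicate 2. TGFBR1, TGFBR2 and TGFBR3 had log2 fold changes of -0.19 ± 0.09, 0.25 ± 0.20 and 0.45 ± 0.18, with adjusted p of 0.342, 0.576 and 0.256 in edgeR's test. Of the 11 treatment response genes 3 rose and 0 fell in edgeR's test, against 1.27% and 0.991% of all genes, with a median of 0.53. Both at an unadjusted p under 0.05 and in DESeq2, 5 were higher and 0 lower. The count of 3 was 5 without control replicate 1 or control replicate 3, and 2 without control replicate 2, TGF-β replicate 1 or TGF-β replicate 2. They were COL7A1, a collagen of anchoring fibrils, at 3.46 ± 0.21, the matrix protein TGFBI at 2.33 ± 0.25 and PMEPA1, a feedback inhibitor of TGF-β signalling, at 2.32 ± 0.38. PMEPA1 passed in 3 of the 6 fits without 1 library.

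**Figure D5:**
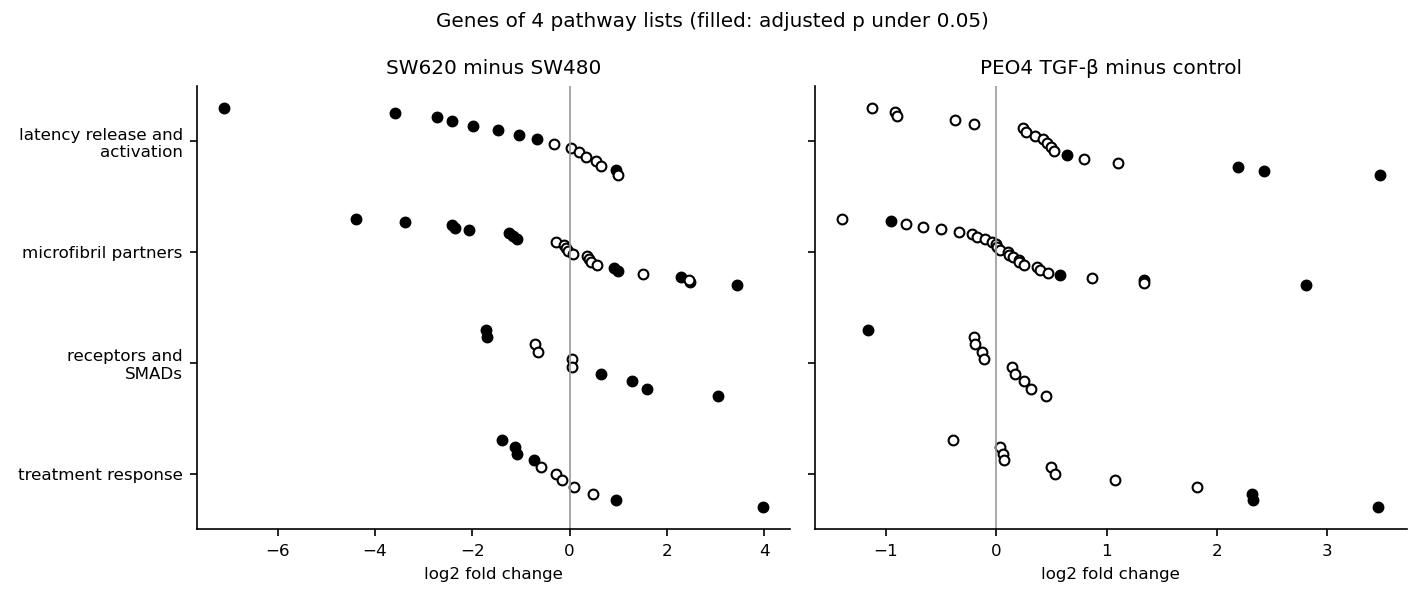
Each point is 1 tested gene of a pathway list, with the log2 fold change of SW620 minus SW480 on the left and of PEO4 with TGF-β minus control on the right, and filled points have an adjusted p under 0.05 in edgeR's test. TGM2 at -7.10 is the lowest point of the left panel, and the filled release and activation points of the right panel all lie above 0.

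The genes whose log2 CPM followed each gene most closely over the 12 libraries were read from 17185 genes tested in both comparisons, as a description, since the libraries share their group and line. FGD6 was closest to TGFB2 (Pearson r = 0.981), followed by TRIM37 and VDR. DNAJB2 was closest to LTBP1 (0.990), followed by PRSS23 and TGFB1I1. For LTBP2 the lincRNA AC245041.1 came first (0.984), then TGFB1I1 and DNAJB2, which thus appear for both genes. OPTN led for LTBP3 (0.990) with TSPAN17 and TRAPPC10, NTSR1 for LTBP4 (0.996) with BRSK2 and CELSR3, and DENND4B for FBN1 (0.984) with DGKQ and MUS81.

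The labels do not say whether counting used strand, so genes on opposite strands that share exon bases cannot be fully told apart. TGFB1 shares 215 exon bases with HNRNPUL1, which stood at a mean of 293 to 454 CPM over the 4 groups, and LTBP2 shares 207 with the lincRNA AC013451.1. AC013451.1 had 2, 5 and 1 counts in PEO4 control and 17, 14 and 17 with TGF-β, far fewer than LTBP2. LTBP1 shares 249 exon bases with AC019127.1, and TGFB3, FBN2 and LRRC32 share shorter stretches. TGFB2 shares 1371 exon bases, 26.6% of its exons, on its own strand with TGFB2-OT1, listed at 0 in every library. How reads on these bases were counted is not given, so the TGFB2 counts and its level per kilobase may be too low. LTBP3, LTBP4 and FBN1 share no exon bases with another annotated gene.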

How the data were processed

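RNA was sequenced from 12 libraries in 4 groups of 3. The authors deposited whole-number counts per gene ID, and 485 of 57500 rows have no symbol. Per the submitters' processing notes in the labels, the build was GRCh38 and the tools named were Trimmomatic 0.36, STAR 2.5.2b, featureCounts, Subread 1.5.2 and DESeq2, and the annotation and strand setting are not given in the sources used here. The authors' deposited tables of differential expression also hold a signal (counts over the library's size factor), a log2 fold change and p-values before and after adjustment, and served only for the comparison of calls.

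For each comparison its 6 libraries alone entered edgeR 4.0.16 under R 4.3.3 (filterByExpr, TMM, two-sided quasi-likelihood test, Benjamini-Hochberg adjustment over all tested genes, threshold 0.05). An SE is the absolute log2 fold change divided by √F. Common biological variation (BCV) came to 0.274 in the SW lines and 0.152 in PEO4. Levels are CPM with TMM factors over all 12 libraries, and lengths and positions come from GENCODE 29. With 3 against 3 libraries an exact permutation test cannot give less than 0.1, and edgeR's model was used for single genes. The script was tested on simulated data.

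The 10 genes, the 4 pathway lists and the marker lists for colorectal, ovarian, epithelial, fibroblast, endothelial, and leukocyte and platelet cells were chosen with earlier results of these data known. Named are all 10 genes, up to 6 passing genes per list and comparison by smallest adjusted p, the 3 TGF-β receptors, and the 3 most alike genes of each passing member with at least 5 CPM in 1 group. Some passing list genes are not reported by name. The alternatives were DESeq2 1.42.0, limma-voom (limma 3.58.1), RLE scaling, scaling to totals, a filter of 10 counts per library or none, all 12 libraries in 1 model, the replicate block, a GC correction (span 0.3) with and without the block, and each library left out. The planned rule for PEO4 reads in SW libraries, at least 50 CPM, left 2 genes for SW620 replicate 3 (1.25%) and none for the others. The limit of 5 CPM was chosen after seeing the data.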

Additional observations from a re-analysis of the deposited data

How the results depend on the processing

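Of the SW results, TGFB2, LTBP1, LTBP2 and LTBP3 passed in every alternative in which they were tested, and in PEO4 LTBP2 did. The number of genes passing in SW620 against SW480 was 10667 with the replicate block, 11291 with the GC correction and the block, and 4253 to 7419 with each library left out, against 6385. Of the 10 genes, 3 passed when at least 10 counts were required in every library, since TGFB2 and LTBP1 were then not tested, 4 to 5 passed with each library left out, and 6 passed with the GC correction and the block, which added TGFB1 as higher (0.31 ± 0.12, adjusted p of 0.0262 in edgeR's test). In PEO4 the number of genes was 967 with DESeq2, 1457 without a filter, 165 with all 12 libraries in 1 model, 2102 with the block, 1807 with the GC correction and the block, and 72 to 1080 with each library left out, against 431. Of the 10 genes, 7 passed with the block, adding FBN2, LTBP3 and TGFB3, and 1 to 5 with each library left out. The same-numbered libraries had correlations of 0.0159, 0.67 and 0.567 in the SW lines and 0.291, -0.14 and 0.481 in PEO4. Differently numbered libraries ran from -0.63 to 0.267 in the SW lines and from -0.486 to 0.239 in PEO4. Numbers 2 and 3 in the SW lines and 1 and 3 in PEO4 thus lay above every differently numbered pair. The main fits did not take the numbers as pairs, and whether the replicates were paired was not tested. Signs turned for TGFB1 in the SW lines (-0.12 without SW620 replicate 3, and up to 0.39 with other libraries left out) and for FBN1 (0.03 with limma-voom, 0.07 with the GC correction, 0.11 with the GC correction and the block, 0.44 without SW480 replicate 2, 0.18 without SW620 replicate 1, and -0.29 to 0.44 over the leave-one-out fits). LTBP4 in PEO4 turned to 0.14 without control replicate 3 and 0.06 without TGF-β replicate 1, and ranged from -0.30 to 0.14. None of these turned values passed, and the cause was not tested. The GC correction moved the median of all genes in the SW lines from 0.033 to 0.140. Depth limits LRRC32 and the fibrillins in the SW lines, TGFB2 and LTBP1 in SW620, and TGFB2 in PEO4 control, all at low counts. In SW620, TGFB2 had 8 counts per library and LTBP1 had 8 to 22, so the sizes of their falls rest on few counts.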

Other observations

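An antisense gene at the TGFB2 start was singled out after its values were seen. TGFB2-AS1 (chromosome 1, 218344196 to 218345678, minus strand, GRCh38) overlaps the printed TGFB2 promoter window. It had 28, 11 and 15 counts in SW480 and 3, 5 and 0 in SW620, so the lines did not overlap. Its log2 fold change was -2.73 ± 0.83 (SE; adjusted p of 0.0344 in edgeR's test). It passed in 3 of the 6 leave-one-out fits, over which the adjusted p ran from 0.0199 to 0.17. In PEO4 it had 0, 1 and 0 counts in control and 1, 2 and 3 with TGF-β, and was not tested.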
